A study of Arabidopsis thaliana with 18 samples.

Results

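The comparison was made on seeds of the Arabidopsis thaliana line mkk3-1, imbibed for 6 h on wet filter paper against dry. Its members were chosen by label and not by any measured value: the 3 libraries labelled mkk3-1 imbibed and the 3 labelled mkk3-1 dry, which are 6 of the 18 libraries of the study. The labels describe freshly harvested seeds in the Col-0 background, and give the genotype as a knockout of MKK3, which encodes a mitogen-activated protein kinase kinase. The other 12 libraries are imbibed and dry seeds of mpk7_ko3, a knockout of the mitogen-activated protein kinase gene MPK7, and of the wild type Col-0, with 3 libraries in each of 6 groups. They were used here in the filter on counts, the scaling and the estimate of the spread between libraries, and to test where the response of mkk3-1 differed. Total RNA of whole seeds was sequenced, so embryo, endosperm and seed coat are mixed, and fewer cells of a type and less RNA per cell cannot be told apart. The labels do not say whether replicates are separate seed batches, so p-values measure the spread between these libraries, which may be technical.

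A dry Arabidopsis seed carries a store of transcripts laid down during maturation, among them those for storage proteins, oil body coats, late embryogenesis abundant (LEA) proteins and heat shock proteins. After water uptake, transcription, translation and respiration resume, and a seed germinates or stays dormant mainly by the balance of abscisic acid, which maintains dormancy, and gibberellin, which breaks it. MKK3 acts in a kinase module with MAPKKK19, MAPKKK20 and related kinases above it and with the group C kinases MPK1, MPK2, MPK7 and MPK14 below it, and MKK3 in cereals is known as a seed dormancy gene.

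The 6 libraries held 19662706 to 20958827 counts each, within the range of 18249333 to 21036275 over all 18. Levels are given as CPM, the count of a gene over the library's scaled total (TMM factors), in the order of replicates 1, 2 and 3. Fold changes are log2 values of imbibed over dry ± SE, from edgeR's quasi-likelihood test, with p-values adjusted by Benjamini and Hochberg over the 17758 genes tested. A gene is said to rise or fall where its adjusted p was below 0.05. Between replicates of a state the chi-square of the counts per degree of freedom was 7.23 to 14.2, so no pair of libraries agreed within counting noise.

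The targeted gene checks the labels. MKK3 had 12.7, 12.3 and 10.30 CPM in the imbibed libraries, against 7.12, 7.21 and 7.75 CPM in the dry ones. The Col-0 values of MKK3 were 14.1, 13.4 and 12.5 CPM in imbibed Col-0 and 18.6, 17.3 and 16.2 CPM in dry Col-0. The dry libraries labelled mkk3-1 were thus all below the dry Col-0 ones, while the imbibed libraries of the genotypes overlapped. Such counts do not show whether the reads come from an intact or a disrupted transcript, and exons of MKK3 overlap AT5G40450 on the other strand. The seed label was met by seed transcripts, since LCR67, a plant defensin gene, the cruciferin gene CRA1 and the vicilin-like gene PAP85 were among the most abundant in both states.

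Levels of markers of single tissues are given as a description. Summed over all genes tested, the scaled CPM came to 803500 to 820200 in imbibed libraries and 1159000 to 1247000 in dry ones. Summed levels of lists, here and below, are therefore not shares of a common total and are read against these sums. The 3 tested of 4 pollen markers had a summed level of 0.448 to 1.23 CPM in imbibed libraries and 9.04 to 13.0 CPM in dry ones. The 3 tested of 8 endosperm markers summed to 2977 to 3354 CPM imbibed and 11370 to 12830 CPM dry, nearly all of it from EPR1, an extensin-like gene. The 7 tested of 11 seed coat markers summed to 769 to 817 CPM imbibed and 241 to 273 CPM dry, mostly from ARA12, a subtilase. The 4 embryo epidermis markers summed to 257 to 271 CPM imbibed and 170 to 180 CPM dry, and the 4 tested of 7 green tissue markers to 85.6 to 99.8 CPM imbibed and 22.0 to 33.8 CPM dry. Of the 21 tested members of these lists 9 rose and 6 fell, beside 73.3% of all genes called, and 1 of the 3 endosperm markers passed the test. Their part in the results below was not tested.

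Imbibition for 6 h changed most of the measured transcriptome of mkk3-1 seeds. Of 17758 genes tested, 6657 (37.5%) rose, 6358 (35.8%) fell and 4743 did not pass the test, so 73.3% were called. The values of imbibed and dry libraries did not overlap for 13605 genes (76.6%). Changes of at least 2-fold were seen in 3264 rises (18.4%) and 3075 falls (17.3%), and of at least 4-fold in 1105 rises (6.22%) and 1178 falls (6.63%). The common biological coefficient of variation was 0.104, and the first principal component of the 18 libraries held 78.9% of their variance. With shares this large, the count of a gene list is read below against 37.5% rising and 35.8% falling.

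The transcript pool itself became less concentrated. In the imbibed libraries 798, 840 and 808 genes held 50% of the counts, against 309, 230 and 294 genes in the dry ones. The top 100 genes accounted for 27.1%, 26.2% and 27.2% of counts imbibed, and 38.5%, 41.7% and 39.3% dry. LEA genes held 3.0%, 2.42% and 2.86% imbibed and 8.27%, 9.03% and 8.66% dry, while cytosolic ribosomal protein genes held 2.09%, 2.13% and 1.98% imbibed and 0.724%, 0.746% and 0.728% dry. No library of one state reached the other in any of these shares, and dry replicate 2 was the most concentrated.

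**Figure D1:**
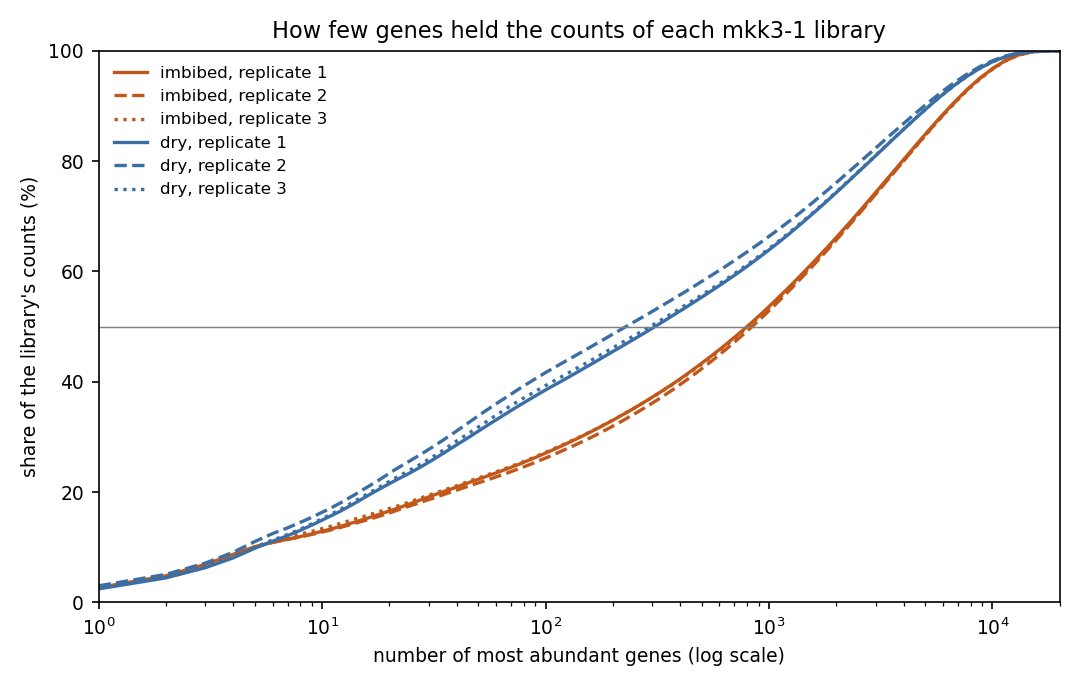
Share of each library's counts (%, vertical axis) held by its most abundant genes, against their number (horizontal axis, log scale), with a line for each of the 3 imbibed and 3 dry mkk3-1 libraries. From the top 10 genes on the dry lines lie above the imbibed ones, and they cross 50% at 230 to 309 genes, against 798 to 840 genes in imbibed seeds.

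Directions depended on the scaling. With TMM the median log2 fold change over all genes tested was 0.05. With upper-quartile factors it was 0.20, with 7727 rises and 5399 falls, and with library totals it was 0.60, with 10442 rises and 3437 falls. Changes below are relative to the median gene, and RNA per seed was not measured. TPM values here are shares of each library's counts per exon length without TMM scaling, so their ratio between states differs from that of the CPM values. Of 87 genes in the highest class of abundance per length (TPM, mean of both states), 77 fell and 6 rose, whereas of 6106 genes at 1 to 10 TPM 2677 rose and 1506 fell.

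The named genes with the largest rises included genes for cell wall proteins, transcription factors and a kinase. EXL5, an EXORDIUM-like cell wall protein gene, had 218, 238 and 201 CPM in the imbibed libraries, against 2.47, 1.83 and 1.46 CPM in the dry ones, a log2 fold change of 6.83 ± 0.168 (adjusted p = 3.10e-17). WOX11, a homeobox factor known from root founder cells, had 30.3, 42.3 and 36.4 CPM in the imbibed libraries, against 0.345, 0.253 and 0.350 CPM in the dry ones (6.81 ± 0.289, adjusted p = 2.39e-14). AT1G80640, a protein kinase gene, had 136, 147 and 128 CPM in the imbibed libraries, against 3.05, 1.33 and 2.16 CPM in the dry ones (5.96 ± 0.206). Every imbibed library was far above every dry one for these 3 genes.

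The noncoding RNA gene AT2G44798 had 154, 206 and 179 CPM in the imbibed libraries, against 0.689, 0.569 and 0.933 CPM in the dry ones (7.92 ± 0.305). It shares exon bases with AT2G09545 on the same strand, so the reads of both cannot be separated. Further large rises were bZIP44, a bZIP factor (5.79, 7.95 and 7.14 CPM imbibed and 0.115, 0.126 and 0 CPM dry, 6.35 ± 0.542), the membrane-bound NAC factor NTL8 (17.8, 25.9 and 19.4 CPM imbibed and 0.287, 0.190 and 0.350 CPM dry, 6.21 ± 0.265) and the bHLH gene AT4G28800 (26.6, 30.6 and 25.4 CPM imbibed and 0.632, 0.253 and 0.350 CPM dry, 6.03 ± 0.248). PDCB1, a plasmodesmata callose-binding protein, rose by 5.89 and the trihelix factor GTL1 by 5.56 on the log2 scale, or 6.69 for GTL1 without dry replicate 3. None of these had overlapping values between states.

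For 69 of the genes tested no read was counted in any dry mkk3-1 library, and 64 of them rose. AT1G12805, annotated as a nucleotide binding protein, had 4.07, 5.01 and 5.13 CPM in the imbibed libraries, at least 26.5-fold above the floor of 3 counts per dry library (adjusted p = 1.05e-06). XTH16, a xyloglucan endotransglucosylase, had 3.60, 3.87 and 4.97 CPM imbibed (at least 23.2-fold), and EXO, the EXORDIUM gene, 2.15, 3.95 and 4.88 CPM (at least 20.5-fold). In the other direction, 65 genes had no read in any imbibed library and 63 of them fell. Genes picked for having no read in a state passed the filter on counts only through other libraries. Their direction was thus largely set by the selection, and both counts are descriptions.

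The largest falls included genes at high and at low levels. NRT1.8, a nitrate transporter gene, had 48.2, 40.4 and 39.4 CPM in the imbibed libraries, against 1429, 1697 and 1357 CPM in the dry ones (-5.13 ± 0.173, adjusted p = 1.26e-15). SIS, annotated in RefSeq as an E3 ubiquitin-protein ligase gene, had 10.8, 10.6 and 16.0 CPM in the imbibed libraries, against 515, 467 and 543 CPM in the dry ones (-5.35 ± 0.173). Every dry library was far above every imbibed one for both genes.

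Lower in abundance were AT4G11911, a STAY-GREEN-like gene (1.33, 1.59 and 1.64 CPM imbibed and 52.1, 63.8 and 52.9 CPM dry, -5.21 ± 0.135), the transporter gene ABCI21 (0.470, 0.571 and 0.534 CPM imbibed and 25.2, 32.1 and 25.8 CPM dry, -5.71 ± 0.201), the auxin-response gene IAA30 (0.235, 0.122 and 0.369 CPM imbibed and 8.16, 8.79 and 9.62 CPM dry, -5.16 ± 0.409) and the cation exchanger gene CHX26 (-5.15 ± 0.246). AAP3, an amino acid permease gene, had 0, 0.0815 and 0.0410 CPM in the imbibed libraries, against 6.78, 10.4 and 9.09 CPM in the dry ones. On the 3 counts of AAP3 in imbibed seeds, the ratio of dry to imbibed was 216, with a 95% interval of 73.3 to 1050 that covers counting error only. Its log2 fold change was -7.56, and -8.38 without imbibed replicate 2.

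The 3 tested pollen markers, all at low levels, fell. VGD1 and VGDH1 were too low in the imbibed mkk3-1 libraries to pass the filter on counts there, so their direction was largely set by it. VGD1, a pollen tube pectin methylesterase gene, had 0.0783, 0.0408 and 0 CPM in the imbibed libraries, against 7.18, 3.48 and 7.40 CPM in the dry ones, and its neighbour VGDH1 had 0, 0.122 and 0.0410 CPM in the imbibed libraries, against 4.37, 2.21 and 2.62 CPM in the dry ones. On 3 imbibed counts the dry to imbibed ratio of VGD1 was 151 (95% counting interval 51.3 to 737). The log2 fold changes were -7.02 for VGD1 (-7.82 without imbibed replicate 1) and -5.68 for VGDH1 (-6.87 without imbibed replicate 2). PPME1, another pollen pectin methylesterase gene, had 0.744, 0.285 and 1.19 CPM in the imbibed libraries, against 1.49, 3.35 and 2.86 CPM in the dry ones. In a wider list of 44 pollen genes, assembled after these values had been seen, 24 were tested: 19 fell and 2 rose, with a median of -4.29, or -2.53 with the 6 genes without reads in a state set to their bound. These 6 had no read in a state and so, like VGD1 and VGDH1, passed the filter on counts only through other libraries. Further genes low in a state may have done so too, and 20 listed genes were not tested. The count is thus a description that supports nothing. It was 12 falls in a fit of the compared libraries alone. The summed level of the list was 124.1 to 135.8 CPM imbibed and 150.9 to 188.5 CPM dry. All genes tested summed to 803500 to 820200 CPM imbibed and 1159000 to 1247000 CPM dry, so the list did not take a smaller share of the imbibed pool. The sugar transporter gene STP11, the receptor kinase gene PRK2A and the peptide hormone genes RALFL4, RALFL15 and RALFL19 had no read in the imbibed libraries. They were at 1.72, 0.822 and 0.583 CPM for STP11 and 1.55, 0.822 and 1.28 CPM for RALFL15 in the dry ones. Dry replicate 2 was lowest of the dry libraries for VGD1 and VGDH1, and the source of these reads was not tested.

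Transcripts for making ribosomes rose. All 13 ribosome biogenesis genes rose (against 37.5% of genes tested), with a median log2 fold change of 1.11, against 0.05 over all genes. FIB2, one of the genes for the rRNA methylating protein fibrillarin, had 303, 318 and 257 CPM in the imbibed libraries, against 52.4, 47.8 and 60.0 CPM in the dry ones (2.45 ± 0.119, adjusted p = 1.73e-13). NOP56, a core protein of the same ribonucleoprotein, had 331, 350.1 and 326 CPM in the imbibed libraries, against 113, 99.4 and 111 CPM in the dry ones (1.64 ± 0.0866), and NUC-L1, the nucleolin gene, had 1578, 1639.9 and 1459.6 CPM in the imbibed libraries, against 734, 703 and 746 CPM in the dry ones (1.1 ± 0.0948). FIB1 had the smaller change of the fibrillarin pair, 0.42 ± 0.0810. Both fibrillarin genes host a small nucleolar RNA on the same strand whose reads may be counted with them.

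Of 111 cytosolic ribosomal protein genes tested, 93 rose and 13 fell, with a median of 1.17 and a summed level of 15980 to 17130 CPM imbibed and 8400 to 9306 CPM dry. RPSAb, a small-subunit protein gene, had 27.6, 28.5 and 24.8 CPM in the imbibed libraries, against 3.73, 2.21 and 4.55 CPM in the dry ones (2.93 ± 0.174), while its paralogue P40 had 777, 747 and 706 CPM in the imbibed libraries, against 427, 441 and 390.1 CPM in the dry ones (0.83 ± 0.0812). The large-subunit gene RPL10B rose by 2.65. The list was drawn by product name, and one gene that fell, AT3G14595 of the L18ae family, had 229, 191 and 208 CPM in the imbibed libraries, against 862, 1029 and 773 CPM in the dry ones (-2.08 ± 0.113). Of 25 translation initiation factors 17 rose and 6 fell. EIF4A1, an RNA helicase of cap-dependent initiation, rose by 0.81, and EIF4A-III, the helicase of the exon junction complex, fell by 0.61 on the log2 scale, a call lost with library totals (-0.05).

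Promoters of these genes were read from RefSeq (TAIR10.1) as the 250 bases before the gene start, and searched on both strands. The site II element was TGGGCC or TGGGCT, and the telo box AAACCCTA, both known from promoters of ribosomal protein genes. Site II letters were found in 69.2% of 13 ribosome biogenesis promoters and 59.5% of 111 cytosolic ribosomal protein promoters, against 24.1% of the 17637 promoters of tested genes that could be read. Other lists held them too: 48.1% of 27 proteasome promoters and 30.4% of 250 pentatricopeptide repeat promoters, lists that mostly rose, and 36.8% of 19 autophagy promoters, a list that mostly fell. The telo box was found in 30.8% and 14.4% of the same 2 sets, against 4.11% of all. The promoters of NOP56 and of STV1, a large-subunit protein gene that rose by 1.17 (398, 412 and 383 CPM in the imbibed libraries, against 167, 192 and 173 CPM in the dry ones) and was chosen after its values were seen, are shown with matches in capitals: NOP56 carries site II and telo box letters, and STV1 site II letters and no telo box letters. The NOP56 stretch is chr1:20986953-20987202 and the STV1 stretch chr3:19662026-19662275, both on the minus strand.
NOP56: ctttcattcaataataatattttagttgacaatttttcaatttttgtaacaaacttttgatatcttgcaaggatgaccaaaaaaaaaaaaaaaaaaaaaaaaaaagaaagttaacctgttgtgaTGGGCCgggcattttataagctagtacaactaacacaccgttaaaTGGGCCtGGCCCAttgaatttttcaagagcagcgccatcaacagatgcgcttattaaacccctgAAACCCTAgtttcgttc
STV1: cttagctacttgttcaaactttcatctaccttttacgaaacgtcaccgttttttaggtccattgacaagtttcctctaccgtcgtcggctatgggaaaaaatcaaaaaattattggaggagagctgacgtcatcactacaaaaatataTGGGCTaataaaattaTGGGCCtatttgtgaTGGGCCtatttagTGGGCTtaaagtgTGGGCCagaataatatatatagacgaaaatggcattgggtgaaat

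Most DNA replication licensing genes rose. MCM proteins form the helicase that opens replication origins, and CDT1 loads it. Of 21 listed 16 were tested: 13 rose and 2 fell, with a median of 1.54. Their summed level was 85.9 to 91.7 CPM imbibed and 48.9 to 52.1 CPM dry. MCM3 and MCM6 were too low in the dry mkk3-1 libraries to pass the filter on counts there. They passed it only through other libraries, so the count and median are partly set by the filter and are descriptions. MCM2 had 6.15, 7.87 and 8.00 CPM in the imbibed libraries, against 0.862, 0.0632 and 0.583 CPM in the dry ones (3.82 ± 0.390, adjusted p = 1.98e-08), MCM3 had 3.44, 3.02 and 4.19 CPM in the imbibed libraries, against 0.230, 0.126 and 0.117 CPM in the dry ones (4.43 ± 0.522) and MCM6 had 2.43, 1.67 and 3.69 CPM in the imbibed libraries, against 0.172, 0.126 and 0.233 CPM in the dry ones (3.82 ± 0.474). Every imbibed library was above every dry one for these 3 genes. PRL, the gene for the MCM7 subunit, rose by 4.15 (3.56 without dry replicate 1 and 5.14 without dry replicate 2), and CDT1A by 3.24 (4.55 without dry replicate 2). MCM2 was at 4.43 without dry replicate 1. ORC5 of the origin recognition complex had 17.1, 15.4 and 13.8 CPM in the imbibed libraries, against 7.47, 7.71 and 6.41 CPM in the dry ones (1.101 ± 0.142). The member emb1688 fell (-0.75 ± 0.0988), a call lost with library totals (-0.20), where no licensing gene fell.

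In cell cycle lists the share of rises was near that over all genes. Of 21 cyclins 8 rose (38.1%, against 37.5% of genes tested) and 2 fell (9.52%, against 35.8%), and 13 and 0 with library totals. CYCD2;1, a D-type cyclin gene of the G1 phase, had 55.6, 52.5 and 51.4 CPM in the imbibed libraries, against 20.2, 17.7 and 20.7 CPM in the dry ones (1.44 ± 0.117), and CYCD3;1 had 1.17, 1.43 and 1.27 CPM in the imbibed libraries, against 0.345, 0.253 and 0.175 CPM in the dry ones. Core histone genes had 12 rises and 12 falls among 38 (31.6% each way), and 23 rises and 8 falls with library totals. The histone H2A gene HTA8 rose by 3.85, or 4.6 without dry replicate 3. MYB3R-4, an activator of mitotic genes, had 0.313, 0.122 and 0.369 CPM in the imbibed libraries, against 6.32, 4.43 and 5.77 CPM in the dry ones (-4.33 ± 0.360), so that gene fell.

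E2F letters, TTTCCCGC or TTTGGCGC, were found in 50.0% of the 16 licensing promoters, against 0.953% of all promoters of tested genes, and site II letters in 68.8%. E2F factors are known to drive replication genes. The MCM2 promoter, chr1:16969964-16970213 on the plus strand, and the MCM3 promoter, chr5:18773707-18773956 on the minus strand, carry both kinds of match, in capitals.
MCM2: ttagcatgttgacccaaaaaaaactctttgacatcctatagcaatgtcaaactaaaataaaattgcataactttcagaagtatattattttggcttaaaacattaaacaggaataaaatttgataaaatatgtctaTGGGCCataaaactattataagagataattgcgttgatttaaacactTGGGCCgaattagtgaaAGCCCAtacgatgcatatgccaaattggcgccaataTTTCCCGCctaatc
MCM3: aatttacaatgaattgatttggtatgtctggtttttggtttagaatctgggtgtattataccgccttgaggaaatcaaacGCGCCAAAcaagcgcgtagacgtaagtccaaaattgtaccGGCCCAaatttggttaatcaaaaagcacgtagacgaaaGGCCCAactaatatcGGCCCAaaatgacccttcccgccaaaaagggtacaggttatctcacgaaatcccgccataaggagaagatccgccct

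Genes that loosen the cell wall changed in both directions, and imbibed replicate 3 stood above the others for several of them. Expansins are wall-loosening proteins, and of 33 listed 12 were tested, of which 6 rose and 3 fell. EXPA1 and EXPA10 were too low in the dry mkk3-1 libraries to pass the filter on counts there. They passed it only through other libraries, so the count of rises is partly set by the filter and is a description. EXPA1 had 13.5, 9.62 and 31.8 CPM in the imbibed libraries, against 0.115, 0.0632 and 0.233 CPM in the dry ones (6.98 ± 0.740), with 6.32 without imbibed replicate 3 and 7.57 without dry replicate 3. EXPA10 had 4.19, 6.399 and 8.58 CPM in the imbibed libraries, against 0, 0.379 and 0.350 CPM in the dry ones (4.71 ± 0.520, and 4.1 without dry replicate 1). EXPA2, known from the endosperm of germinating seeds, had 1.53, 1.83 and 12.6 CPM in the imbibed libraries, against 0.0575, 0 and 0.700 CPM in the dry ones (4.33 ± 1.08, adjusted p = 0.00121). Its log2 fold change was 2.68 without imbibed replicate 3 and 7.19 without dry replicate 3. EXPA9, at 0.705, 1.30 and 6.03 CPM in the imbibed libraries, had 4.97, and 3.56 without imbibed replicate 3. The expansin-like gene EXLA1 fell, with 14.2, 14.5 and 15.4 CPM in the imbibed libraries, against 38.8, 43.3 and 49.1 CPM in the dry ones (-1.57 ± 0.161).

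Xyloglucan endotransglucosylases cut and rejoin the hemicellulose of the wall. Of 12 tested 7 rose and 2 fell, with a median of 1.63, or 0.67 with 3 genes without dry reads at their bound. Yet the summed level of the list was lower in imbibed libraries, 679 to 889 CPM, than in dry ones, 3031 to 3881 CPM, most of it from XTH25. XTH25 had 661, 577 and 787 CPM in the imbibed libraries, against 2952, 3796 and 3792 CPM in the dry ones (-2.38 ± 0.209). XTH15 had 0.352, 1.06 and 1.72 CPM imbibed and no dry read, at least 5.84-fold above the floor. Of 13 tubulins 8 rose and 3 fell: TUB2 had 182, 175 and 177 CPM in the imbibed libraries, against 65.0, 60.9 and 63.2 CPM in the dry ones (1.497 ± 0.0937), and TUB7 had 6.22, 4.52 and 6.198 CPM in the imbibed libraries, against 25.6, 23.0 and 22.4 CPM in the dry ones (-2.06 ± 0.125).

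Arabinogalactan proteins, glycoproteins of the wall and membrane, were divided, with 12 rises and 9 falls among 26 (median 0.60, or 0.23 with genes without reads in a state at their bound). AGP7 had 59.8, 71.3 and 55.3 CPM in the imbibed libraries, against 4.31, 4.87 and 3.79 CPM in the dry ones (3.85 ± 0.158), AGP17 rose by 5.56 (4.97 without dry replicate 1), and AGP1 had 4.35, 4.20 and 14.2 CPM in the imbibed libraries, against 58.9, 56.2 and 73.2 CPM in the dry ones (-3.05 ± 0.330, and -3.87 without imbibed replicate 3). Of 77 pectin methylesterase and pectin lyase genes 43 fell and 16 rose, with a median of -1.15. The pollen genes VGD1, VGDH1 and PPME1 belong to that list. Among aquaporins, water channels of membranes, TIP3;1 of the protein storage vacuole had 728, 647 and 846 CPM in the imbibed libraries, against 2275, 2618 and 2085 CPM in the dry ones (-1.65 ± 0.128), and the plasma membrane channel gene PIP3 had 74.4, 71.9 and 66.6 CPM in the imbibed libraries, against 11.3, 11.6 and 14.5 CPM in the dry ones (2.51 ± 0.208).

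Transcripts of late seed maturation fell. LEA proteins protect the drying embryo, and of 43 tested 35 fell and 2 rose (against 35.8% and 37.5% of genes tested), with a median of -1.85. GEA6, a group 1 LEA gene, had 2123, 1575 and 1781 CPM in the imbibed libraries, against 14652, 17964 and 15399 CPM in the dry ones (-3.13 ± 0.2001, adjusted p = 1.23e-11). RAB18, a dehydrin gene responsive to abscisic acid, had 3989, 3131 and 3759 CPM in the imbibed libraries, against 21403, 25455 and 21850.2 CPM in the dry ones (-2.66 ± 0.167). The dehydrin gene LTI30 had 56.6, 42.9 and 62.4 CPM in the imbibed libraries, against 864, 1207 and 914 CPM in the dry ones (-4.20 ± 0.151), the largest fall of the list. The states were several-fold apart in every library, and AT3G15670 and AT4G36600 fell by 3.72 and 3.99 on the log2 scale.

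Oleosins and caleosins coat oil bodies, and of 13 listed genes tested 11 fell and 1 rose, with a median of -2.02. OLEO1 had 3787, 3254 and 3934 CPM in the imbibed libraries, against 8809, 10176 and 9340.0 CPM in the dry ones (-1.37 ± 0.127), and OLEO2 had 1025, 822 and 1046 CPM in the imbibed libraries, against 4253, 5106 and 3923 CPM in the dry ones (-2.20 ± 0.162). HSD1 (AT5G50600), a steroleosin gene, had 22.0, 21.2 and 24.1 CPM in the imbibed libraries, against 242, 121 and 175 CPM in the dry ones (-3.00 ± 0.296). Per length, OLEO1 stood at 7448 TPM imbibed and 11796 TPM dry and GEA6 at 4684 TPM imbibed and 25177 TPM dry (means of 3 libraries).

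Seed storage protein transcripts changed less and varied more. Of 9 tested 6 fell and none rose at this threshold, with a median of -1.01, and 3 fell with library totals. SESA5, a napin-type albumin gene, had 3325, 2367 and 4446 CPM in the imbibed libraries, against 10485, 11439.8 and 11461 CPM in the dry ones (-1.72 ± 0.201). SESA3 had 243, 243 and 563 CPM in the imbibed libraries, against 787, 924 and 1209 CPM in the dry ones (-1.48 ± 0.443, adjusted p = 0.00530), a call lost with library totals (-0.92), as was that of the cruciferin gene CRU2 (-0.95 ± 0.243, against -0.39). The SESA1 call (-1.01) was lost with library totals and without dry replicate 3 (-0.73) or imbibed replicate 1 (-0.80). CRU3 had 6566, 6511 and 11037 CPM in the imbibed libraries, against 8125, 9293 and 12271 CPM in the dry ones and CRA1 16953, 17151 and 18197 CPM in the imbibed libraries, against 20246, 24334 and 19923 CPM in the dry ones. Neither passed the test (adjusted p = 0.240 and 0.0950), and imbibed replicate 3 was the highest imbibed library for CRU3, SESA1, SESA3 and SESA4.

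Promoters of these lists were searched for letters known from seed genes: ACGTG, the core of the abscisic acid response element, which is contained in the G-box CACGTG, and CATGCA, the RY element bound by B3 factors such as ABI3 and FUS3. ACGTG was found in 74.4% of 43 LEA promoters, 61.5% of 13 oleosin promoters and 66.7% of 9 storage protein promoters, against 23.1% of all. CATGCA was found in 16.3%, 69.2% and 88.9% of the same sets, against 7.27% of all. The promoters of GEA6 (chr2:16780369-16780618, minus strand), OLEO1 (chr4:12900180-12900429, plus strand) and SESA3 (chr4:13611546-13611795, plus strand) are shown with matches to ACGTG and, for OLEO1 and SESA3, CATGCA in capitals on either strand.
GEA6: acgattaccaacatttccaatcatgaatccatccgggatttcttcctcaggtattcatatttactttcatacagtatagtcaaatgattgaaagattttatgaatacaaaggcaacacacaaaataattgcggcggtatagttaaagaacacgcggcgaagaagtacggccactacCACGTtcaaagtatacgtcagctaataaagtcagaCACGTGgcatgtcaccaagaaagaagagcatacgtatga
OLEO1: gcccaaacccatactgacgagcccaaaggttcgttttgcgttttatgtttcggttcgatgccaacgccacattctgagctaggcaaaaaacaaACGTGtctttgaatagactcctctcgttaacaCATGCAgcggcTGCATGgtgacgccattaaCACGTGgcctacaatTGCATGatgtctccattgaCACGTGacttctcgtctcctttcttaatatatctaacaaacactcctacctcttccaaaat
SESA3: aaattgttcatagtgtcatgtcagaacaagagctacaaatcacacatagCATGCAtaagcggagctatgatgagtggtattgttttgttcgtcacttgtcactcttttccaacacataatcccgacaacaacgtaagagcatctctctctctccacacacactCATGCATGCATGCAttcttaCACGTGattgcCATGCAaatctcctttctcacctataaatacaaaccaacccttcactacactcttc

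Over whole sets the shares were closer together. ACGTG was found in 22.8% of 1103 promoters of genes that rose at least 4-fold, 31.1% of 1156 that fell at least 4-fold, and 23.1% of all. CATGCA was found in 8.07% of the rising, 13.4% of the falling and 7.27% of all promoters. Site II was at 24.2%, 12.4% and 24.1%, and the telo box at 6.53%, 2.08% and 4.11%, in the same order. The TATA letters TATAAA were at 43.3%, 46.3% and 44.9%. A match is a description of the letters in this window.

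**Figure D2:**
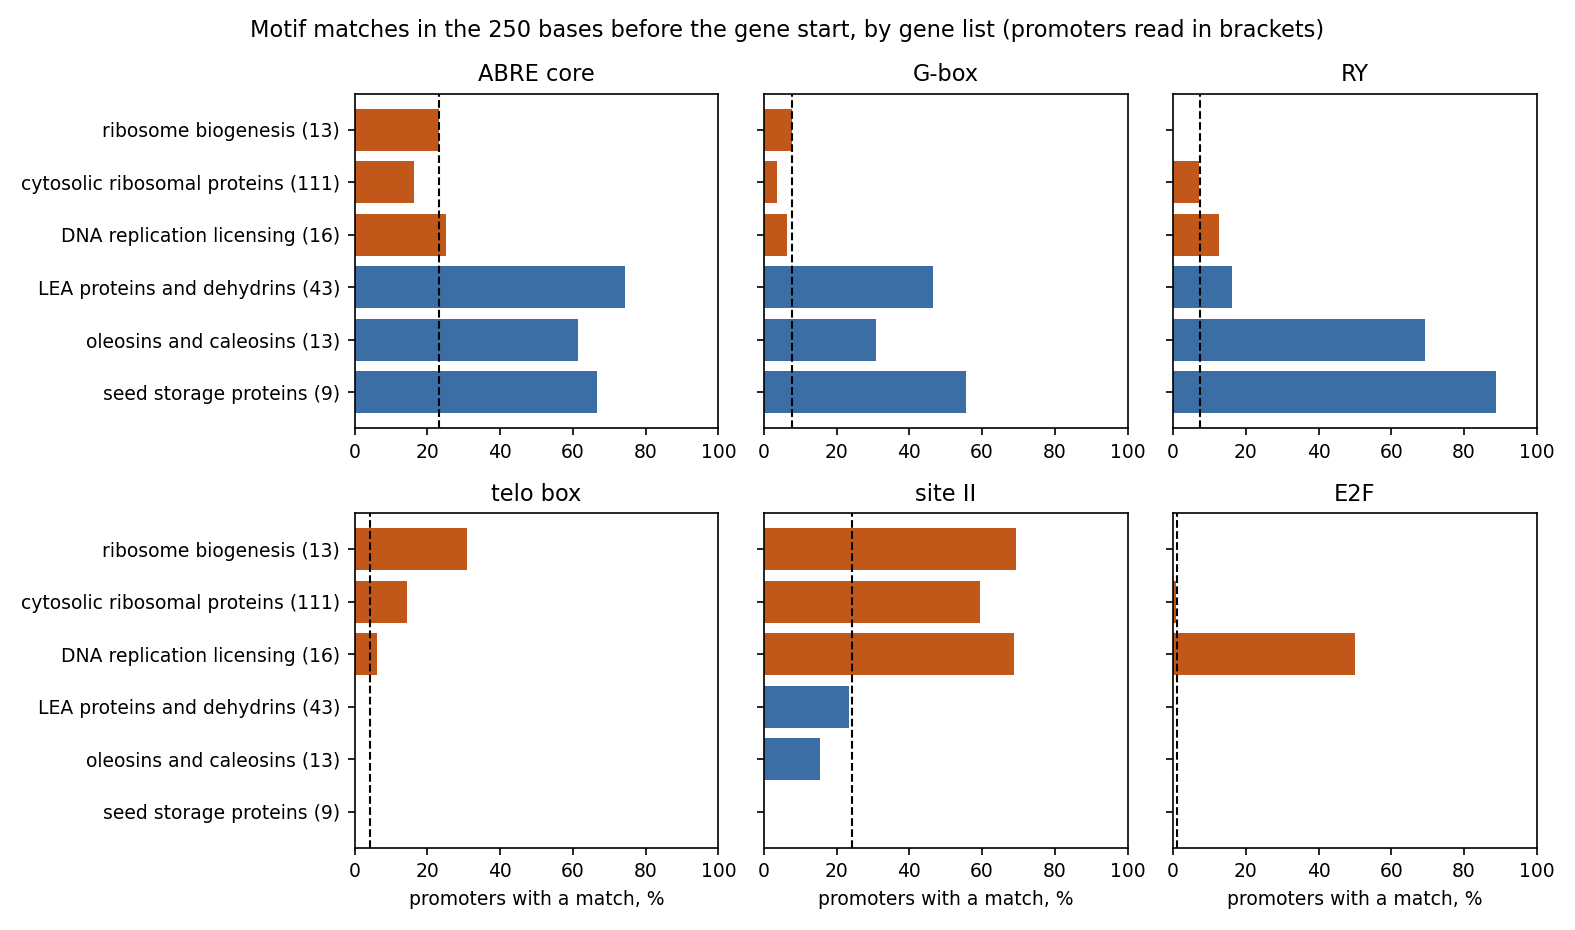
Share of promoters with at least 1 match (%, horizontal axis) for 6 motifs in 3 lists that mostly rose (orange) and 3 that mostly fell (blue), with the share over all promoters of tested genes as a dashed line. Site II stands at 59.5% to 69.2% in these 3 rising lists, against 24.1% of all, and the abscisic acid element at 61.5% to 74.4% in the falling ones, against 23.1%.

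Abscisic acid genes that changed were found at each step of the pathway, beside 73.3% of all genes tested that were called. Of 10 biosynthesis genes 7 fell and 1 rose, with a median of -0.88 (4 falls and 2 rises with library totals). The NCED enzymes cleave carotenoids in the rate-limiting step. NCED9, known from seeds, had 6.07, 4.85 and 5.66 CPM in the imbibed libraries, against 18.04, 20.2 and 15.68 CPM in the dry ones (-1.70 ± 0.187), and NCED2 and NCED3 fell by 2.61 and 4.72 on the log2 scale. NCED6 had 0.979, 0.856 and 2.30 CPM in the imbibed libraries, against 3.22, 3.04 and 2.74 CPM in the dry ones (-1.12 ± 0.366, adjusted p = 0.00940), a call lost with library totals (-0.57) and without imbibed replicate 2 (-0.87). ABA1, zeaxanthin epoxidase, had 193, 183 and 201 CPM in the imbibed libraries, against 509.7, 515 and 498 CPM in the dry ones (-1.40 ± 0.0665), and ABA4, which acts just below it, had 9.51, 8.40 and 6.77 CPM in the imbibed libraries, against 2.24, 1.14 and 2.57 CPM in the dry ones (2.04 ± 0.227).

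The hydroxylases that inactivate abscisic acid went different ways. CYP707A2, the main form of imbibed seeds, had 67.7, 63.7 and 68.7 CPM in the imbibed libraries, against 49.9, 55.7 and 54.1 CPM in the dry ones (0.33 ± 0.151), with an adjusted p of 0.0581 that missed the threshold. It passed it under several alternatives: upper-quartile factors (0.48), library totals (0.88), no filter on low counts (0.34), the compared libraries alone (0.32) and both fits with a replicate block (0.33 each). CYP707A1 had 3.13, 1.87 and 4.39 CPM in the imbibed libraries, against 13.0, 11.6 and 13.2 CPM in the dry ones (-2.01 ± 0.229), and CYP707A3 had 3.80, 3.22 and 5.50 CPM in the imbibed libraries, against 1.95, 1.58 and 2.04 CPM in the dry ones (1.16 ± 0.328). The libraries of the states did not overlap for any of the 3.

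Of 12 receptors tested 7 rose and 4 fell, and 3 of the rises and all 4 falls were at least 2-fold. PYL4 had 34.6, 37.7 and 33.7 CPM in the imbibed libraries, against 1.49, 0.190 and 0.525 CPM in the dry ones (5.54 ± 0.258, and 6.57 without dry replicate 1). PYL11 and PYL5 rose by less than 2-fold (0.57 and 0.79 on the log2 scale). Values of the 4 receptors that fell are not given here, so these named rises do not stand for the list. The clade A PP2C phosphatases, which block the signal until a receptor binds them, fell in 7 of 9 cases and rose in 2. ABI2 had 12.1, 8.76 and 14.7 CPM in the imbibed libraries, against 169, 177 and 159.6 CPM in the dry ones (-3.83 ± 0.141, adjusted p = 3.72e-15). HAI1 fell by 4.0 on the log2 scale, while HAI2 had 234, 216 and 225 CPM in the imbibed libraries, against 103, 112 and 96.3 CPM in the dry ones (1.11 ± 0.140). AHG1, a phosphatase of seeds, had 292, 275 and 312 CPM in the imbibed libraries, against 800.5, 878 and 846 CPM in the dry ones (-1.52 ± 0.110).

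Gibberellin synthesis genes rose in part. Of 10 tested 5 rose and 2 fell. GA20OX3 had 67.9, 75.5 and 67.0 CPM in the imbibed libraries, against 5.92, 4.36 and 7.05 CPM in the dry ones (3.59 ± 0.156, adjusted p = 3.48e-14). GA3OX1, which makes the active hormone, had 1.68, 2.24 and 1.44 CPM imbibed and no read in the dry libraries, at least 9.99-fold above the floor (adjusted p = 1.62e-06). GA3OX2 had 0.666, 0.978 and 0.739 CPM imbibed and again none dry, at least 4.44-fold. The inactivating oxidase genes GA2OX2 and GA2OX6 fell, with 3.80, 3.46 and 2.83 CPM in the imbibed libraries, against 11.4, 11.4 and 14.5 CPM in the dry ones for GA2OX2 (-1.89 ± 0.181) and -2.93 on the log2 scale for GA2OX6.

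Of the DELLA repressors of the gibberellin response, 3 rose and 1 fell among those named. RGA1 had 75.4, 76.5 and 68.0 CPM in the imbibed libraries, against 9.48, 13.1 and 9.50 CPM in the dry ones (2.78 ± 0.118), RGL2, the main DELLA of seeds, had 92.6, 95.7 and 90.9 CPM in the imbibed libraries, against 17.5, 15.1 and 15.2 CPM in the dry ones (2.55 ± 0.134), and GAI rose by 1.54. RGL3 had 23.3, 24.7 and 27.6 CPM in the imbibed libraries, against 65.0, 70.2 and 54.6 CPM in the dry ones (-1.33 ± 0.129). The F-box gene SLY1, which removes DELLA proteins, rose by 0.83, and the receptor gene GID1C fell by 1.00 on the log2 scale.

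**Figure D3:**
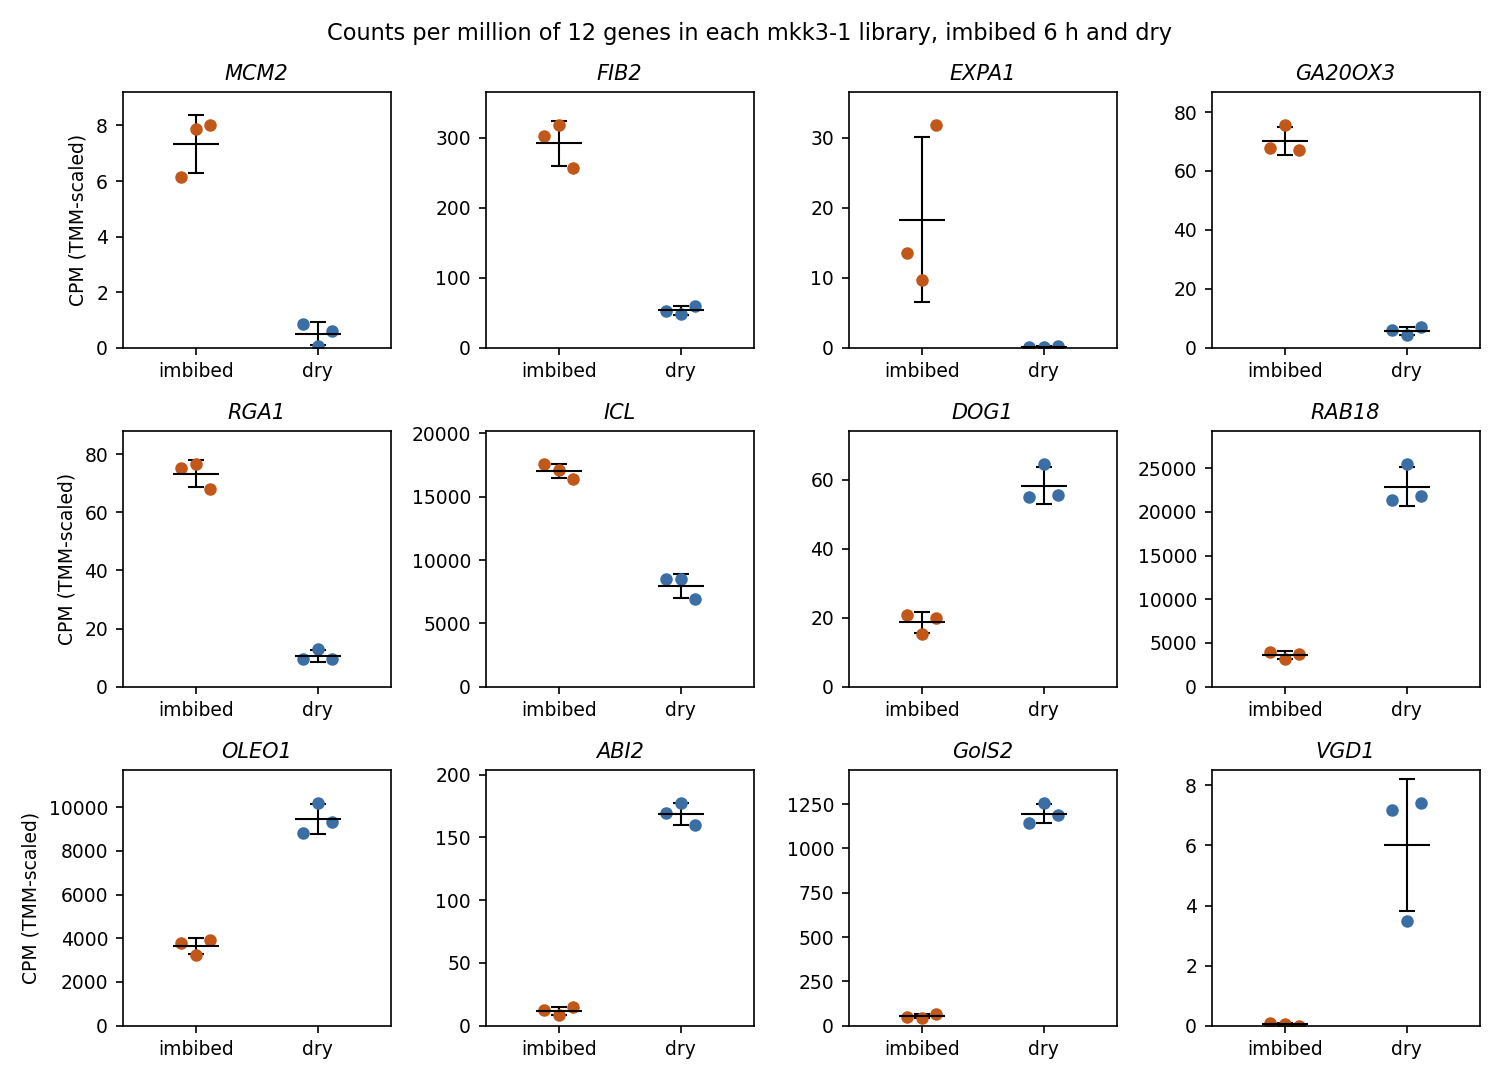
CPM (vertical axes, linear from 0) of 12 genes in each of the 3 imbibed (orange, left) and 3 dry (blue, right) mkk3-1 libraries, with the mean as a bar and the SD as its error. The states are apart in every panel, and imbibed replicate 3 of EXPA1, at 31.8 CPM, stands above the other imbibed libraries.

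Dormancy genes mostly fell relative to the median gene. Of 13 tested 8 fell and 2 rose, with a median of -0.58, and 5 rose and 5 fell with library totals (median -0.03). DOG1, a main determinant of dormancy depth, had 20.7, 15.2 and 20.0 CPM in the imbibed libraries, against 54.9, 64.4 and 55.5 CPM in the dry ones (-1.64 ± 0.154, adjusted p = 5.33e-09). SOM, a zinc finger gene that holds back germination in the dark, had 599, 529 and 559.9 CPM in the imbibed libraries, against 1349, 1455 and 1249 CPM in the dry ones (-1.26 ± 0.102). PIL5, the phytochrome-interacting factor above SOM, went the other way, with 160.3, 189 and 181 CPM in the imbibed libraries, against 46.1, 40.3 and 45.4 CPM in the dry ones (2.01 ± 0.0952).

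Regulators of maturation were split, with 5 rises and 6 falls among 13. ABI5, a bZIP factor of the abscisic acid response, had 248, 214 and 249.8 CPM in the imbibed libraries, against 926, 953 and 925 CPM in the dry ones (-1.98 ± 0.109), and FUS3 had 8.26, 9.05 and 12.5 CPM in the imbibed libraries, against 24.1, 31.4 and 27.4 CPM in the dry ones (-1.48 ± 0.172). ABI3 had 301, 326 and 305 CPM in the imbibed libraries, against 169.7, 168 and 165 CPM in the dry ones (0.89 ± 0.0744), and ABI4, an AP2 factor, had 35.2, 33.9 and 31.3 CPM in the imbibed libraries, against 5.34, 8.03 and 6.12 CPM in the dry ones (2.37 ± 0.146). The ABI genes thus changed in both directions, with no overlap between states for any of them.

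In the module around MKK3, 3 kinases at the top fell and MAPKKK20, also at the top, did not pass the test. MAPKKK13 had 17.38, 18.3 and 22.3 CPM in the imbibed libraries, against 90.4, 122 and 85.9 CPM in the dry ones (-2.36 ± 0.178), MAPKKK14 1.17, 1.22 and 1.31 CPM in the imbibed libraries, against 17.5, 19.3 and 16.9 CPM in the dry ones (-3.85 ± 0.270) and MAPKKK19 2.66, 1.71 and 3.45 CPM in the imbibed libraries, against 23.0, 21.8 and 22.3 CPM in the dry ones (-3.10 ± 0.336). MPK2 had 7.24, 8.52 and 9.77 CPM in the imbibed libraries, against 4.88, 4.87 and 5.95 CPM in the dry ones (0.70 ± 0.192). The test was not passed by MPK7 (-0.08), MPK1 (-0.20), MPK14 (-0.12) and MAPKKK20 (0.11). MPK7 was at 33.7, 35.8 and 39.1 CPM imbibed and 36.7, 39.02 and 39.4 CPM dry, with overlapping values. Over the 9 tested genes 2 rose and 3 fell (33.3%, against 35.8% of genes tested) with a median of -0.12, which was 0.45 with library totals.

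Genes of the heat shock families changed in both directions. Of 19 genes of the HSP70, HSP90 and HSP101 families 9 rose and 7 fell (36.8%, against 35.8% of genes tested), with a median of 0.33, while their summed level was 5641 to 6242 CPM imbibed and 11380 to 12180 CPM dry. HSP101, the disaggregase of heat tolerance, had 519, 444 and 473 CPM in the imbibed libraries, against 1933, 1782 and 1841 CPM in the dry ones (-1.95 ± 0.0992), and Hsp70b had 1682, 1398 and 1407 CPM in the imbibed libraries, against 3924, 3701 and 3984 CPM in the dry ones (-1.37 ± 0.148). The endoplasmic reticulum chaperone gene BIP1 had 148, 129 and 168 CPM in the imbibed libraries, against 42.2, 37.9 and 48.8 CPM in the dry ones (1.79 ± 0.113), and mtHsc70-1 of mitochondria had 205, 224 and 194 CPM in the imbibed libraries, against 57.9, 47.7 and 55.1 CPM in the dry ones (1.95 ± 0.0828). Of these named members HSP101 and Hsp70b fell, and BIP1 and mtHsc70-1 rose.

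Of 32 small heat shock proteins 9 rose and 12 fell (37.5%), with a median of -0.22 that was 0.33 with library totals. HSP17.6A had 4123, 3695 and 3725 CPM in the imbibed libraries, against 6871, 7532 and 7489 CPM in the dry ones (-0.92 ± 0.0979). Of 13 heat shock factor genes 9 fell and 2 rose. HSFA9, the seed-specific factor of this family, had 50.0, 41.2 and 55.4 CPM in the imbibed libraries, against 377, 395 and 443 CPM in the dry ones (-3.05 ± 0.115, adjusted p = 5.44e-15).

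Most WRKY genes, known from stress responses, fell. Of 35 WRKY factors 22 fell and 5 rose (16 and 9 with library totals), with a median of -0.87. WRKY33, a factor of the response to fungi, had 12.2, 10.4 and 18.8 CPM in the imbibed libraries, against 167, 92.3 and 209 CPM in the dry ones (-3.50 ± 0.488), with dry replicate 2 below the other dry libraries. WRKY18 had 21.8, 21.6 and 25.5 CPM in the imbibed libraries, against 148, 142 and 157 CPM in the dry ones (-2.70 ± 0.104). The NAC factor NAC032 had 66.6, 57.0 and 71.7 CPM in the imbibed libraries, against 400.4, 481 and 378 CPM in the dry ones (-2.69 ± 0.119), and DEAR3, a DREB-type repressor, had 4.42, 3.30 and 4.39 CPM in the imbibed libraries, against 24.1, 27.3 and 28.2 CPM in the dry ones (-2.71 ± 0.130). ERF4, a repressor of the ethylene response factor family, had 15.1, 11.4 and 15.02 CPM in the imbibed libraries, against 15.2, 15.1 and 14.9 CPM in the dry ones and did not pass the test (adjusted p = 0.585).

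Other transcription factors rose strongly. MEE8, a bHLH gene, had 207, 222 and 217 CPM in the imbibed libraries, against 7.76, 7.21 and 12.01 CPM in the dry ones (4.58 ± 0.168), bZIP2 had 24.2, 26.1 and 23.3 CPM in the imbibed libraries, against 1.32, 0.822 and 0.991 CPM in the dry ones (4.54 ± 0.240) and the B3 gene ABS2 had 42.5, 40.3 and 42.2 CPM in the imbibed libraries, against 2.36, 2.59 and 2.80 CPM in the dry ones (4.01 ± 0.137). MYB90, an activator of anthocyanin synthesis, had 3.44, 3.55 and 2.34 CPM in the imbibed libraries, against 0.172, 0.126 and 0.117 CPM in the dry ones (4.43 ± 0.591). By family, 25 homeobox genes rose and 9 fell among 50 (median 0.56). Among bHLH genes 22 rose and 28 fell of 64 (median -0.07, and 0.48 with library totals). For bZIP genes the counts were 9 and 22 of 40 (median -0.34, and 0.21 with library totals), and for MYB genes 13 and 25 of 55 (median -0.33, and 0.23 with library totals).

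Both named clock genes of the morning rose. LHY had 13.8, 13.6 and 15.1 CPM in the imbibed libraries, against 1.84, 1.33 and 2.16 CPM in the dry ones (2.99 ± 0.191) and CCA1 had 14.1, 13.0 and 11.8 CPM in the imbibed libraries, against 4.42, 3.16 and 5.01 CPM in the dry ones (1.62 ± 0.220), while TOC1 of the evening had 104, 102 and 98.7 CPM in the imbibed libraries, against 174, 173 and 169 CPM in the dry ones (-0.76 ± 0.0763), a call lost with library totals (-0.21). Over the list 2 rose and 10 fell of 14, with a median of -0.47 that was 0.09 with library totals. The hour of sampling was not used here. Autophagy genes, which act in the recycling of cell contents, fell in 14 of 19 cases and rose in 3 (7 and 6 with library totals). ATG8H had 5.83, 5.91 and 9.52 CPM in the imbibed libraries, against 62.7, 66.0 and 71.3 CPM in the dry ones (-3.23 ± 0.166), and ATG8B, of the same family, had 25.9, 28.4 and 26.7 CPM in the imbibed libraries, against 9.77, 9.74 and 10.2 CPM in the dry ones (1.44 ± 0.0998).

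Raffinose family sugars protect dry cells, and galactinol synthase makes their precursor. GolS2 had 49.9, 42.1 and 64.9 CPM in the imbibed libraries, against 1146, 1254 and 1186 CPM in the dry ones (-4.51 ± 0.139, adjusted p = 5.15e-16), GolS1 had 435, 409 and 415 CPM in the imbibed libraries, against 1204, 1322 and 985 CPM in the dry ones (-1.48 ± 0.0973), and of 5 tested genes 4 fell and none rose. Among antioxidant genes PER1, a seed peroxiredoxin, had 616, 533 and 696 CPM in the imbibed libraries, against 3067, 3425 and 3141 CPM in the dry ones (-2.38 ± 0.117), the catalase gene CAT1 had 56.0, 45.0 and 51.3 CPM in the imbibed libraries, against 203, 219 and 193 CPM in the dry ones (-2.01 ± 0.104), and APX1, a cytosolic ascorbate peroxidase, had 40.3, 28.9 and 46.9 CPM in the imbibed libraries, against 14.0, 7.02 and 13.5 CPM in the dry ones (1.75 ± 0.399). Of 13 such genes 5 rose and 6 fell.

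Of 18 genes for turning seed oil into sugar 10 rose and 6 fell, with a median of 0.25, and the named ICL, MLS and PCK1 rose. ICL, isocitrate lyase of the glyoxylate cycle, had 17552, 17082 and 16421 CPM in the imbibed libraries, against 8496, 8536 and 6884 CPM in the dry ones (1.09 ± 0.122, adjusted p = 7.17e-08). MLS, malate synthase, had 4411, 4452 and 4167 CPM in the imbibed libraries, against 2625, 2593 and 2578 CPM in the dry ones (0.74 ± 0.0918), and PCK1, the phosphoenolpyruvate carboxykinase of gluconeogenesis, had 2411, 2331 and 2304 CPM in the imbibed libraries, against 1214, 1068 and 1083 CPM in the dry ones (1.07 ± 0.103). Per length, ICL was at 14223 TPM imbibed and 4092 TPM dry. MFP2 of peroxisomal beta-oxidation rose by 0.79, and ACX1, an acyl-CoA oxidase, had 202, 196 and 191 CPM in the imbibed libraries, against 446, 402 and 389 CPM in the dry ones (-1.07 ± 0.0710). The summed level of the 18 genes was 28910 to 30570 CPM imbibed and 15970 to 18080 CPM dry.

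Seed protein genes were among the most abundant in both states. Per length, LCR67 was at 92287 TPM imbibed and 84005 TPM dry, and its CPM values were 22012, 21739.5 and 21355 CPM imbibed and 28436, 37599 and 30913 CPM dry (-0.57 ± 0.131, a call lost with library totals at -0.01). The direction of LCR67 thus differed between the scales, with higher TPM and lower CPM in imbibed seeds. PAP85 had 11435, 11353 and 11502 CPM in the imbibed libraries, against 23178, 25784 and 22339.6 CPM in the dry ones (-1.06 ± 0.118). EPR1, the extensin-like gene of the endosperm, had 2975, 3352 and 3011 CPM in the imbibed libraries, against 11676, 12832 and 11369 CPM in the dry ones (-1.94 ± 0.155). The 18S ribosomal RNA gene AT3G41768 was among the 10 most abundant of the dry state, and all ribosomal RNA genes held 0.306%, 0.452% and 0.295% of imbibed counts and 1.09%, 0.961% and 0.900% of dry counts.

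Nuclear genes for organelle function mostly rose, while genes of the organelle genomes, which held a trace of each library's counts, mostly fell. Pentatricopeptide repeat proteins process organelle RNA, and of 250 tested 167 rose and 19 fell, with a median of 0.70. Of 18 mitochondrial import genes 14 rose and 4 fell: TOM7-2 had 11.0, 13.0 and 8.54 CPM in the imbibed libraries, against 0.804, 1.45 and 1.75 CPM in the dry ones (3.02 ± 0.255), and TIM23-1 had 96.9, 83.5 and 86.8 CPM in the imbibed libraries, against 178, 218 and 194 CPM in the dry ones (-1.14 ± 0.133). Of 24 nuclear-encoded organellar ribosomal proteins 16 rose and 1 fell. Of 50 tested mitochondrial genes 34 fell and 1 rose, and of 67 plastid genes 45 fell and none rose at this threshold. The mitochondrial genome held 0.0402%, 0.0482% and 0.0486% of imbibed counts and 0.0996%, 0.0937% and 0.0839% of dry counts. The plastid genome held 0.00897%, 0.0126% and 0.00648% of imbibed counts and 0.0188%, 0.0156% and 0.0171% of dry counts. How fully these libraries capture organelle transcripts was not tested, so their falls cannot be set on a par with the nuclear rises.

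Photosynthesis genes were mixed. RBCS1A, a Rubisco small subunit gene, had 91.9, 95.6 and 81.4 CPM in the imbibed libraries, against 20.8, 32.9 and 20.3 CPM in the dry ones (1.86 ± 0.178), and LHCB4.1 of the light-harvesting antenna had 44.4, 40.5 and 45.3 CPM in the imbibed libraries, against 138, 150.4 and 119 CPM in the dry ones (-1.64 ± 0.0948). Of 9 nuclear light-harvesting genes 1 rose and 4 fell. KCS10, a marker of the embryo epidermis that acts in cuticle wax synthesis, averaged 33.5 ± 4.47 CPM in imbibed seeds and 8.78 ± 2.81 CPM in dry seeds (SD, n = 3 each) with a log2 fold change of 1.92 ± 0.232, and the subtilase gene ARA12 had 801, 754 and 791 CPM in the imbibed libraries, against 259, 226 and 243 CPM in the dry ones (1.69 ± 0.114). Of 27 proteasome subunits 21 rose and 2 fell, with a smaller median of 0.36.

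**Figure D4:**
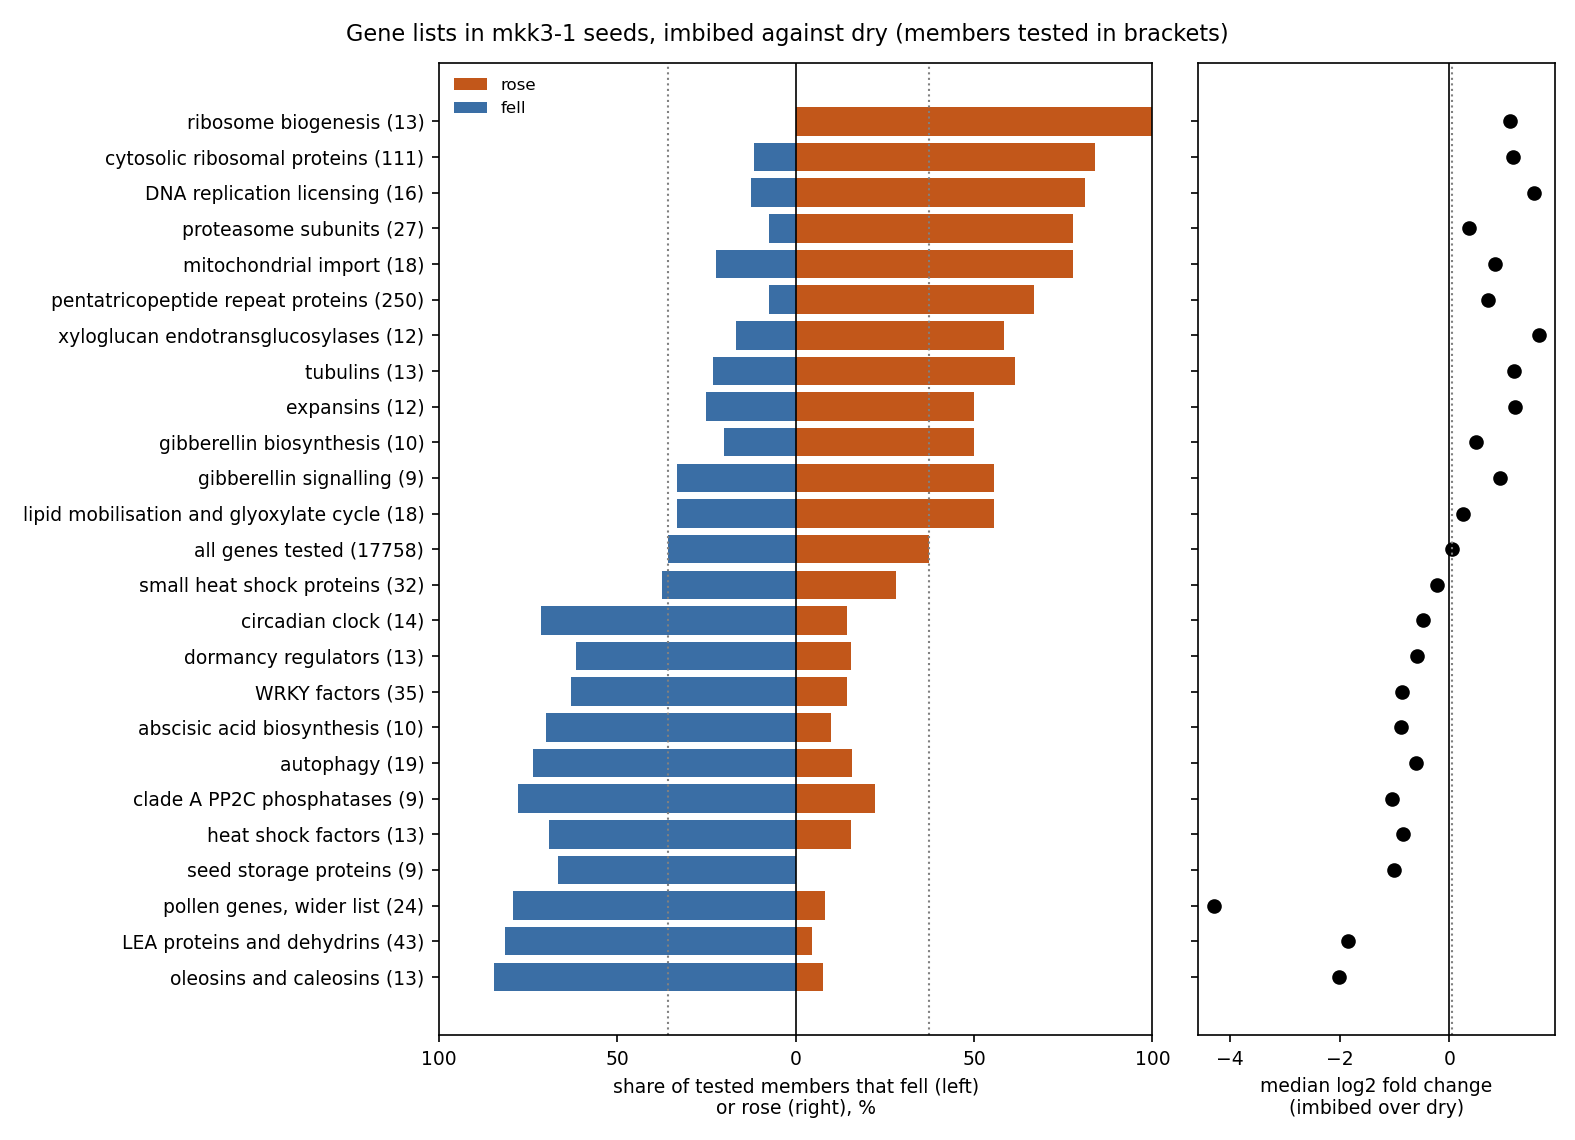
Left, share of the tested members of each gene list that rose (orange, right of 0) or fell (blue, left of 0) in imbibed mkk3-1 seeds, %, with dotted lines at the 37.5% and 35.8% of all genes tested. Right, the median log2 fold change of imbibed over dry, from 1.63 for xyloglucan endotransglucosylases to -4.29 for the wider pollen list, with genes without reads in a state at their fitted value.

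Genes often used as references changed too, with directions that depended on the scaling. Of 13 tested 5 rose and 7 fell, with a median of -0.31, and 8 rose and 1 fell with library totals (median 0.24). Of these changes with TMM, 2 rises and 1 fall were at least 2-fold. UBQ5 had 348, 333 and 312 CPM in the imbibed libraries, against 120.0, 139 and 124 CPM in the dry ones (1.37 ± 0.0921), GAPC1 had 204, 192 and 196 CPM in the imbibed libraries, against 85.9, 63.3 and 82.1 CPM in the dry ones (1.36 ± 0.133) and ACT2 had 48.6, 41.5 and 46.3 CPM in the imbibed libraries, against 113, 72.5 and 117 CPM in the dry ones (-1.15 ± 0.227). ACT7 had the smallest change among those named, 0.31 ± 0.0868, and UBQ10 fell by 0.61 on the log2 scale, a call lost with library totals (-0.06).

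Gene structure is given as a description. The median exon length was 1764 bases for rises of at least 4-fold, 1525 bases for falls of at least 4-fold and 1814 bases for all genes tested. Genes with 1 exon made up 18.8% of these rises, 25.7% of these falls and 13.9% of all, counting protein-coding genes. Of 386 noncoding RNA genes 149 rose and 78 fell, with a median of 0.61.

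Exons of several named genes overlap those of another gene, among them OLEO1, OLEO2, RAB18, NOP56, NUC-L1, SIS, NRT1.8, AAP3, WRKY33, HSP101, HSFA9, TIP3;1, PIL5, GolS1, EXPA2 and P40. The strand setting of the counting is not given in the sources used here, so reads of such partners may be mixed. Near-identical paralogues, such as VGD1 and VGDH1 or the fibrillarin and small heat shock genes, may also share reads.

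The response of mkk3-1 was close to that of Col-0. Of the 13015 genes that changed in mkk3-1, 11926 changed the same way in Col-0, 12 the opposite way, and 1077 did not pass the test there, which does not show that they differ. Across the genes tested, which are not independent replicates, the log2 fold changes of both genotypes had a Pearson r of 0.937. In Col-0 6891 genes rose and 6407 fell. The interaction term, which tests the difference itself, called 22 genes, 0.124% of those tested, with 14 responses higher (0.0788%) and 8 lower (0.0451%) in mkk3-1, and 1562 genes had an unadjusted p below 0.05.

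IRT3, a zinc and iron transporter gene, differed most. It had 27.8, 28.3 and 32.2 CPM in the imbibed libraries, against 6.55, 6.32 and 6.18 CPM in the dry ones, and 0.494, 0.720 and 0.0821 CPM in imbibed Col-0 and 1.23, 1.601 and 0.899 CPM in dry Col-0. The difference of log2 fold changes was 3.73 ± 0.428 (mkk3-1 minus Col-0, adjusted p = 2.24e-04). IRT3 was thus higher in mkk3-1 in both states and rose there, with no overlap between the genotypes. MKK3 itself rose in mkk3-1 (0.68 ± 0.106) and had -0.38 in Col-0, a difference of 1.06 ± 0.144 (adjusted p = 0.00170).

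ILA, a gene for a translation regulator related to GCN1, fell to 221, 263 and 231 CPM in imbibed mkk3-1, against 367, 375 and 329 CPM in dry mkk3-1. It had 264, 238 and 212 CPM in imbibed Col-0 and 93.5, 89.9 and 99.5 CPM in dry Col-0. The difference was -1.92 ± 0.155 (adjusted p = 9.93e-07), and it lay in the dry seed, where every mkk3-1 library was above every Col-0 one, while imbibed values overlapped. RPL18AA, a 60S ribosomal protein gene, had 24.5, 20.5 and 21.3 CPM imbibed and 59.5, 67.2 and 62.0 CPM dry in mkk3-1 and 8.68, 8.00 and 10.4 CPM in imbibed Col-0 and 7.26, 10.7 and 8.54 CPM in dry Col-0 (-1.53 ± 0.192, adjusted p = 5.83e-04). Exons of both genes overlap a neighbour. The ILA fall in mkk3-1 itself (-0.58 ± 0.108) was a call lost with library totals (-0.03).

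A pair of sulphate reduction genes responded lower in mkk3-1. APR2, an adenylylsulphate reductase gene, had 26.1, 29.3 and 22.9 CPM imbibed and 126, 127 and 106 CPM dry in mkk3-1, and 35.3, 29.1 and 33.8 CPM in imbibed Col-0 and 74.7, 78.2 and 81.03 CPM in dry Col-0 (-0.95 ± 0.145, adjusted p = 0.00735). APR3 had 77.2, 89.6 and 68.7 CPM imbibed and 95.9, 99.9 and 84.5 CPM dry in mkk3-1, and 92.1, 81.04 and 94.5 CPM in imbibed Col-0 and 49.2, 65.1 and 46.7 CPM in dry Col-0 (-0.98 ± 0.178). For both, dry mkk3-1 libraries were above all dry Col-0 ones. EXL5 rose more in mkk3-1 (1.33 ± 0.247, adjusted p = 0.0299). OXS3, a stress tolerance gene, fell less (0.95 ± 0.176). ASN3, an asparagine synthetase gene, rose less (-0.79 ± 0.144). Imbibed ASN3 was at 23.1, 26.2 and 22.2 CPM in mkk3-1 and 39.4, 37.5 and 40.7 CPM in Col-0. In imbibed mpk7_ko3 it was at 24.8, 27.3 and 25.8 CPM, also below Col-0. APR2, APR3, EXL5, OXS3 and ASN3 were not called against mpk7_ko3, so their differences are not shown to be particular to mkk3-1.

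The abscisic acid receptor gene PYL1, chosen after its values were seen, was among the 8 lower responses. PYL1 had 0.940, 0.937 and 0.739 CPM in the imbibed libraries, against 0.804, 0.822 and 0.874 CPM in the dry ones, and 1.65, 2.08 and 2.30 CPM in imbibed Col-0 and 0.411, 0.415 and 0.193 CPM in dry Col-0. Its difference was -2.48 ± 0.485 (adjusted p = 0.0406), a call lost with DESeq2, with a replicate block and on leaving out any library of these genotypes other than mkk3-1 dry replicate 2. No gene of the gibberellin and dormancy lists was called. EXPA2 had 1.53, 1.83 and 12.6 CPM imbibed and 0.0575, 0 and 0.700 CPM dry in mkk3-1 and 8.27, 14.5 and 15.8 CPM in imbibed Col-0 and 0.617, 2.31 and 1.03 CPM in dry Col-0, a difference of 1.08 ± 1.53 (adjusted p = 0.902). DOG1 was at 20.7, 15.2 and 20.0 CPM in imbibed mkk3-1 and at 11.2, 11.3 and 10.9 CPM in imbibed Col-0, with overlapping dry values and a difference of 0.63 ± 0.221 (adjusted p = 0.353). Imbibed mpk7_ko3 had 24.2, 20.0 and 19.2 CPM of DOG1, also above imbibed Col-0. A missed threshold does not show that the genotypes respond alike.

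Against mpk7_ko3, whose comparison shares the mkk3-1 libraries, the interaction called 5 genes (0.0282% of those tested), 3 higher (0.0169%) and 2 lower (0.0113%) in mkk3-1, with 918 at an unadjusted p below 0.05. IRT3 had 0.597, 0.384 and 0.632 CPM in imbibed mpk7_ko3 and 1.79, 1.40 and 1.97 CPM in dry mpk7_ko3, a difference of 3.88 ± 0.395 (mkk3-1 minus mpk7_ko3, adjusted p = 3.01e-05). MKK3 had 13.0, 14.5 and 14.5 CPM in imbibed mpk7_ko3 and 20.2, 21.4 and 21.2 CPM in dry mpk7_ko3 (1.26 ± 0.144), ILA 190.4, 215 and 169 CPM in imbibed mpk7_ko3 and 79.4, 107 and 86.6 CPM in dry mpk7_ko3 (-1.66 ± 0.155) and RPL18AA 9.19, 9.55 and 10.4 CPM in imbibed mpk7_ko3 and 10.27, 8.93 and 13.0 CPM in dry mpk7_ko3 (-1.36 ± 0.189). AT2G41650, an uncharacterized gene, had 27.95, 27.5 and 25.7 CPM imbibed and 5.63, 6.51 and 6.94 CPM dry in mkk3-1, and 24.0, 30.7 and 26.3 CPM in imbibed mpk7_ko3 and 14.1, 15.9 and 14.8 CPM in dry mpk7_ko3 (1.24 ± 0.147). Col-0 had 47.1, 44.2 and 46.2 CPM of AT2G41650 imbibed and 5.82, 6.52 and 6.998 CPM dry. The difference from mpk7_ko3 lay in dry seeds, where mpk7_ko3 was above mkk3-1 and Col-0. Imbibed values of mkk3-1 and mpk7_ko3 overlapped, and imbibed Col-0 was above both. AT2G41650 shares exon bases with AT2G41640 on the same strand.

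**Figure D5:**
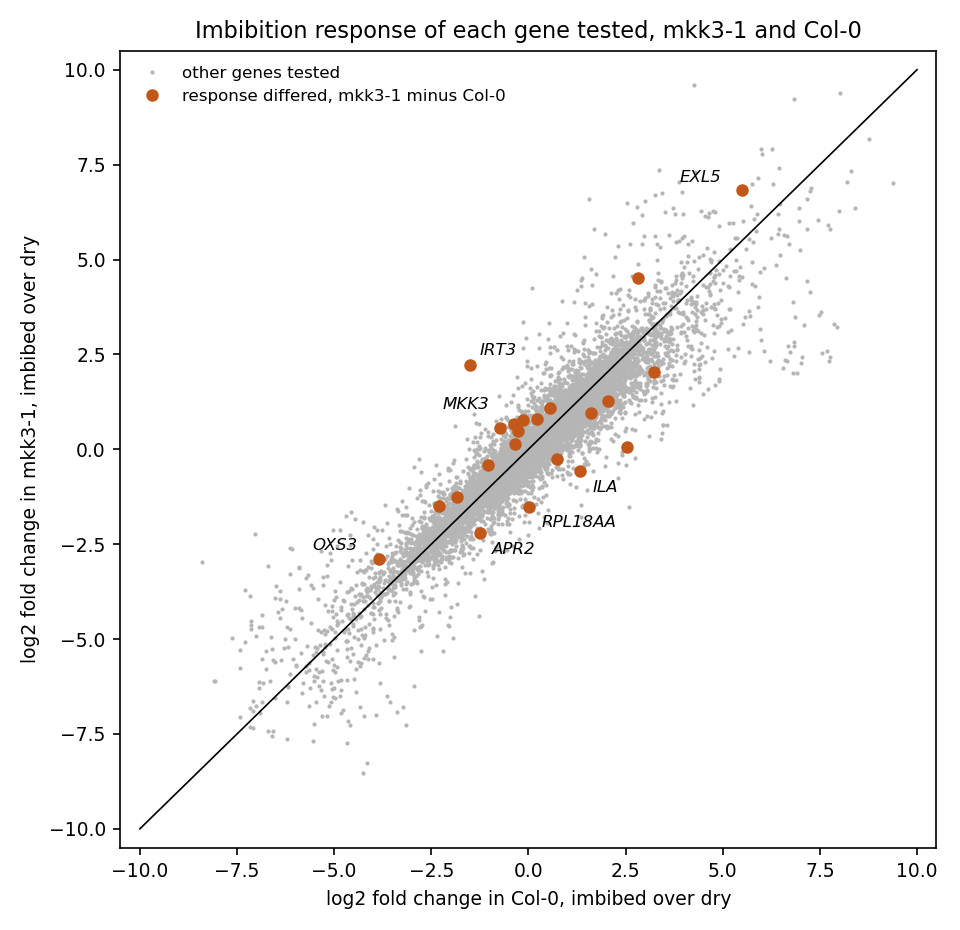
Log2 fold change of imbibed over dry in mkk3-1 (vertical axis) against Col-0 (horizontal axis) for each of 17758 genes tested, with values of genes without reads as fitted and drawn within 10, the 22 genes whose responses differed in orange, and the line of equal response. Most genes lie near the line, and IRT3 lies above it by 3.73 and ILA below it by 1.92.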

How the data were processed

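Total RNA of whole seeds was sequenced as paired reads. The deposited values are counts per gene. Per the submitters' processing notes, the tools were fastp 0.20.0, HISAT2 2.1.0, featureCounts 2.0.1 and DESeq2 1.34.0, with the TAIR10 genome; the strand setting is not given in the sources used here. From these counts as deposited, genes were kept by filterByExpr (minimum count 10) and tested with edgeR 4.0.16 (quasi-likelihood, TMM, 1 mean for each of 6 groups over 18 libraries, Benjamini-Hochberg adjustment at 0.05), and differences between genotypes as interaction terms. SE is the log2 fold change over the root of F. The fit was also run on simulated counts in which most genes were equal between states. The real states differ far more, so that run says nothing on the choice of scaling. Gene names and promoters came from RefSeq TAIR10.1, and 32548 of 32833 identifiers matched. Figures used matplotlib 3.10.9.

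Genes were named by rule: the largest non-overlapping rises and falls among genes averaging 5 CPM or more, the most abundant, those without counts in a state, the most changed and most abundant of each list, the largest differences between genotypes and a fixed set. The members and lists were chosen with earlier results of these data known. Alternatives were DESeq2 1.42.0, other scalings, filters, leaving out libraries and a replicate block. Intervals on counts cover counting error only.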

Additional observations from a re-analysis of the deposited data

Results flagged for a closer look

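The interaction term found responses to imbibition that differed between mkk3-1 and Col-0, given here as mkk3-1 minus Col-0 on the log2 scale. The response was higher in mkk3-1 for IRT3 (3.73), AT3G19680 (1.69), EXL5 (1.33), AT4G32480 (1.28), MKK3 (1.06), OXS3 (0.95), WAVH1 (0.92) and AT5G21940 (0.82). It was lower in mkk3-1 for AT1G01300 (-0.64), ASN3 (-0.79), APR2 (-0.95), APR3 (-0.98), AT5G11420 (-1.19), RPL18AA (-1.53), ILA (-1.92) and PYL1 (-2.48). These are the named ones of 22 genes called, 8 of 14 higher responses and all 8 lower ones. At least 1 left-out library ended the call of EXL5, AT3G19680, AT4G32480, OXS3, WAVH1, AT5G21940, AT5G11420, APR3, ASN3, AT1G01300 and PYL1. No left-out library ended that of IRT3, MKK3, ILA, RPL18AA or APR2.

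Against mpk7_ko3, with the same mkk3-1 libraries, the interaction term found higher responses in mkk3-1 for IRT3 (3.88), MKK3 (1.26) and AT2G41650 (1.24), and lower ones for RPL18AA (-1.36) and ILA (-1.66). Only IRT3, MKK3, RPL18AA and ILA were called against both genotypes. The AT2G41650 difference lay in dry seeds, where mpk7_ko3 was above mkk3-1 and Col-0.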

How the results depend on the processing

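In the imbibition comparison the counts of 6657 rises and 6358 falls became 10442 and 3437 with library totals, and 3264 and 3075 at 2-fold or more. DESeq2's Wald test gave 6501 and 6454, no filter 6729 and 6445, a fit of the compared libraries alone 6518 and 6200, and leaving out 1 library 6260 to 6395 and 6059 to 6125. Correlations of the deviations of same-numbered libraries were 0.00815, 0.0991 and 0.109 in mkk3-1, 0.0479 to 0.0984 in Col-0, and 0.0435, 0.203 and 0.278 in mpk7_ko3. Not every pair was over 0.1, so the numbers were not taken to pair the samples. As a hint from the data, every number other than mkk3-1 replicate 1 correlated best with itself. A replicate block gave 6648 and 6376, and CYP707A2 passed the test with it (0.33).

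The count of responses higher in mkk3-1 than in Col-0 (14) was 133 with DESeq2, 2 at an adjusted p of 0.01, 5 at 2-fold, 9 with library totals, 63 without a filter, 70 with the compared libraries alone, and 47 and 83 with the block over all or the compared libraries. Leaving out 1 library gave 2 (mkk3-1 imbibed replicate 1) to 65 (mkk3-1 dry replicate 2). The count of lower ones (8) was 28 with DESeq2, 3 at an adjusted p of 0.01, 4 at 2-fold, 27 without a filter, 27 with the compared libraries alone, 16 and 37 with the block, and 3 to 13 on leaving out 1 library. Against mpk7_ko3 the higher ones (3) were 7 with DESeq2 and 3 to 4 on leaving out 1 library. The lower ones (2) were 5 with DESeq2, 5 without a filter, 4 with the block, and 2 to 5 on leaving out 1 library (5 without mpk7_ko3 dry replicate 3). The cause of these shifts was not tested.

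Of 3463 recomputed fold changes of named genes 3391 kept direction and side of the threshold, 39 lost the call, 20 gained it and 13 changed sign, none of them past the test as reported. Changed signs were with library totals MPK7 0.47, MPK1 0.36, MPK14 0.45, CRA1 0.26, CRU3 0.25, APR3 0.30 and ERF4 0.43, with upper-quartile factors MPK7 0.07, MPK14 0.04 and ERF4 0.03, and leaving out 1 library MPK14 (-0.3 to 0.32) and MAPKKK20 (-0.04 to 0.2). At 3 libraries a group, genes near the floor of 3 counts carry wide errors.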
